A study of Mus musculus with 16 samples.

Results

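The 10 genes described here are those of MHC class I antigen presentation: H2-K1, H2-D1, B2m, Tap1, Tap2, Tapbp, Psmb8, Psmb9, Psmb10 and Nlrc5. They were chosen by name as members of the pathway, with earlier results of these data known, and all 10 were found among the 55414 gene rows of the deposited tables. All 10 also passed the filter in every comparison, a minimum of 10 in at least 2 libraries. That minimum was in normalised reads for fits within a deposited table and in whole reads for fits across them. They were measured by RNA sequencing in whole testes of young mice, as 16 libraries from 14 days (P14) or 16 days (P16) after birth, around the time when the first germ cells move through meiotic prophase.

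The mice fell into 3 genotype groups. Ythdc2 conditional knockout (cKO) mice lose Ythdc2, which encodes an RNA helicase needed by meiotic germ cells, and they were compared with mice labelled control and with mice labelled Cre control. Per the labels, tamoxifen (10 mg/ml) was given to all 3 groups on the days P12 and P13. In the column names, libraries labelled control start with WT and those labelled Cre control with Ctrl. Beyond that, the labels do not say which alleles the 2 control types carry or which promoter drives the Cre. They also do not give the strain or whether each library came from its own animal, so p-values measure only the spread between these libraries. A first kit was used to deplete ribosomal RNA from 4 libraries per stage, 2 of controls and 2 of cKO mice. With a second kit there were 2 Cre control libraries at P14, 4 at P16, and 1 further cKO library at each stage, called cKO library 3 here.

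MHC class I molecules show short peptides from the cell's own proteins to cytotoxic T cells. The proteasome cuts proteins into peptides, and under interferon the subunits encoded by Psmb8, Psmb9 and Psmb10 take the place of the constitutive catalytic subunits. The TAP transporter, made of Tap1 and Tap2, carries the peptides into the endoplasmic reticulum, where tapasin (Tapbp) loads them onto a heavy chain (H2-K1 or H2-D1) held together with beta-2-microglobulin (B2m). Nlrc5 is a coactivator that is recruited to class I promoters. Meiotic germ cells are known for low class I levels, whereas macrophages and other somatic cells of the testis carry these genes at higher levels.

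Stretches upstream of the transcription start are shown for the genes on which the comparisons turn. They come from RefSeq on GRCm38.p6, where promoter windows were found for 8 of the 10 genes, while Tap2 and Nlrc5 had none. Both strands of each window, from 250 bases before to 50 bases after the start, were searched for the interferon-stimulated response element core (GAAA, any 2 bases, GAAA), the gamma-activated sequence TTCNNNGAA and the NF-kB site. Capitals mark the matches, and each line runs 5′ to 3′ on the gene's own strand. The heavy chain genes H2-K1 and H2-D1 are shown because the second rose at P16 and the first did not, B2m because it had the smallest adjusted p of the 10 genes there, and Psmb8 because it was also called with both control types in 1 fit. The last line is the stretch that Psmb9 and Tap1 share between their divergent starts.
H2-K1, chr17:34000348-34000597, minus strand: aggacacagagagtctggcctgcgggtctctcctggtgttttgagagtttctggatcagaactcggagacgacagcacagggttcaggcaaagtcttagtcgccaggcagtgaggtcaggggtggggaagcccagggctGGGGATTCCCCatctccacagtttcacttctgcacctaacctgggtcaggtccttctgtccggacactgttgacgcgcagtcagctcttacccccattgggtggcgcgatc
H2-D1, chr17:35262844-35263093, plus strand: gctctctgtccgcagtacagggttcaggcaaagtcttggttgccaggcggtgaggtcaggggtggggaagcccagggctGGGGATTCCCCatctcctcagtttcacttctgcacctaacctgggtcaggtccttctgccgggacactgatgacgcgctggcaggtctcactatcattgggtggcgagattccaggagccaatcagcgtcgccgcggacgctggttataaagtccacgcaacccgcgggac
B2m, chr2:122147437-122147686, plus strand: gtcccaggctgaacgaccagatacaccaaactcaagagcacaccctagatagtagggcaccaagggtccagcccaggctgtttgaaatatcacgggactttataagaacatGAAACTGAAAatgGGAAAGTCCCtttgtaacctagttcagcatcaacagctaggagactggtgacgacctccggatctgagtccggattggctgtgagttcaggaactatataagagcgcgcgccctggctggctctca
Psmb8, chr17:34197945-34198194, plus strand: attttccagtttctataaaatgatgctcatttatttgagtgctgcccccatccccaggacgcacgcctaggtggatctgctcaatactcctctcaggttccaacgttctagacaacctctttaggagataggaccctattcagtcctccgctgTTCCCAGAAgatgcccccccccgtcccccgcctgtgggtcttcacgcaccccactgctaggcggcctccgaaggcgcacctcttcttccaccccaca
Psmb9 and Tap1, chr17:34187331-34187555, plus strand: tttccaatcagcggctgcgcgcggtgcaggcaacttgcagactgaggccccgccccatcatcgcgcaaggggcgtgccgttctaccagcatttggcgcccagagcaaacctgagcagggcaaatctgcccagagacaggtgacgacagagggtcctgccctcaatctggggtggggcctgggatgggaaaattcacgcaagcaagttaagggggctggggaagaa

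H2-K1 and H2-D1 carried an NF-kB site in overlapping forms with the same letters, and B2m carried one too. Of the 32851 RefSeq promoter windows of this length, 8.46% held that site. B2m was the only 1 of the 8 genes with an exact match to the response element core, which 3.44% of all windows held. Its 2 matches lay between 139 and 117 bases before the start. Near matches were not searched for, so the other windows may hold other forms of these elements. Psmb8 was the only 1 with the gamma-activated sequence, found in 8.30% of all windows. The windows of Tap1, Tapbp, Psmb9 and Psmb10 held none of these letters. The first 250 bases before the Psmb9 start and before the Tap1 start overlap by 225 bases, and the exons of the 2 genes share 212 bases on opposite strands in the GENCODE M21 annotation. The strand setting of the authors' counting is not given in the sources used here, so reads of that overlap cannot be assigned to Psmb9 or Tap1 with certainty.

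Each library held 14494867 to 27531529 reads on genes. Ythdc2 checked the labels: its normalised count was 2666 and 2609 in the P16 control libraries and 502 and 541 in the P16 cKO libraries, and it was lower in all cKO libraries than in all controls in each table. The deposited values are reads divided by a size factor set within each of 4 tables, so levels are compared within a table only. The 2 kits differed in mapping, with 18.1% to 21.8% of reads unmapped in the first and 30.7% to 41.1% in the second. All first-kit libraries carried one sequencing run label and all second-kit libraries carried others. Differences between the kits, and any term for kit, thus cannot be told apart from differences between runs. Library 2 of the P14 control group stood apart in the class I genes, and results that rest on it are given with and without it. Short words of 75 bases that also occur in another gene made up 5.403% of H2-D1 and 3.10% of H2-K1. A small share of reads of these heavy chains may thus have gone uncounted, because multimapping reads are kept apart from the gene rows. In Tap2, Tapbp, Psmb8 and Nlrc5, exons overlap those of other annotated genes, mostly on the opposite strand.

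At P16, 9 of the 10 class I genes were higher in cKO testes than in controls, and H2-K1 was not. Here and below, "rose" and "fell" mean an adjusted p under 0.05 in limma on log2(value + 1), with Benjamini-Hochberg adjustment over all genes tested and the change on that log2 scale. In this comparison 18.6% of the 17986 genes tested rose and 19.9% fell. The median change of the 10 genes was 0.64, against 0.00 over all genes tested. In each of the 9 genes both cKO libraries lay above both control libraries, as did 34.2% of all genes tested. These are whole testes, so a change in the number of cells of a type and a change in RNA per cell cannot be told apart.

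Among the parts of the complex itself, B2m, the invariant light chain, had a normalised count of 1606 and 1448 in the 2 control libraries and 2987 and 2515 in the 2 cKO libraries. Both cKO libraries were thus well above both controls, by 0.85 (SE 0.07, adjusted p = 4.22e-06, limma). H2-D1, a classical heavy chain, was at 1976 and 1795 in controls and at 2500 and 2146 in cKO. Its rise was smaller, at 0.30 (SE 0.07, adjusted p = 0.0049, limma), and the groups did not overlap. H2-K1, the other classical heavy chain, was at 4458 and 3864 in controls and at 4378 and 3598 in cKO. Its groups overlapped, with a change of -0.07 (SE 0.08, adjusted p = 0.57, limma). Taken per length of transcript, the H2-K1 level was 2.93 and 2.79 times that of H2-D1 in the controls and 2.27 and 2.18 times in cKO, so the 2 heavy chains lay closer together in both cKO libraries. The same per-length ratio was 2.01 to 2.43 in the 4 Cre control libraries at P16 and 1.80 in cKO library 3, the lowest of all 16 libraries.

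The peptide transporter and its partner rose together. Tap1, the first TAP subunit, had 187 and 191 normalised reads in controls and 399 and 352 in cKO, a rise of 0.98 (SE 0.10, adjusted p = 1.66e-05, limma). Tap2, the second subunit, had 122 and 125 in controls and 209 and 153 in cKO. Its 2 cKO libraries differed from each other by more than its controls did, and the rise of 0.54 (SE 0.15, adjusted p = 0.0153, limma) was 0.31 with an adjusted p of 0.20 without cKO library 1. It was also not called without control library 1, at an adjusted p of 0.0567. Tapbp, the loading chaperone tapasin, was at 4629 and 4655 in controls and at 5672 and 5222 in cKO. That is a rise of 0.23 (SE 0.05, adjusted p = 0.0021, limma), the smallest of the 9.

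All 3 inducible proteasome subunits rose, from lower levels. Psmb8 was at 66.5 and 63.3 normalised reads in controls and at 144 and 104 in cKO, a rise of 0.90 (SE 0.18, adjusted p = 0.0020, limma). Psmb9 was at 42.6 and 42.5 in controls and at 84.4 and 62.1 in cKO, a rise of 0.75 (SE 0.21, adjusted p = 0.0141, limma). In both genes cKO library 1 was the higher of the 2 cKO libraries. Psmb10 was at 365 and 408 in controls and at 455 and 459 in cKO. Its rise of 0.24 (SE 0.09, adjusted p = 0.0407, limma) lay nearest to the threshold and was lost without any single one of control library 1, cKO library 1 or cKO library 2. Psmb9 was not called without cKO library 1, at 0.54 with an adjusted p of 0.16.

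Nlrc5, the class I coactivator, was the scarcest of the 10 in controls and had the largest fitted change of the 10. It was at 33.3 and 37.8 normalised reads in controls and at 123 and 57.0 in cKO, a rise of 1.219 (SE 0.30, adjusted p = 0.0059, limma). Library 1 of the cKO group stood more than 2-fold above library 2, and without it the change was 0.67 with an adjusted p of 0.0889. H2-D1 was not called without control library 2, at 0.23 with an adjusted p of 0.063, and H2-K1 was called lower without cKO library 1, at -0.21 with an adjusted p of 0.000938. With 1 library left out at a time, 6 to 8 of the 10 genes were called in either direction, and B2m, Tap1, Tapbp and Psmb8 were called in all 4. The number called depended on limma's variance trend: without it only B2m and Tap1 were called, while edgeR's quasi-likelihood test called 9 and DESeq2 called 7.

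**Figure D1:**
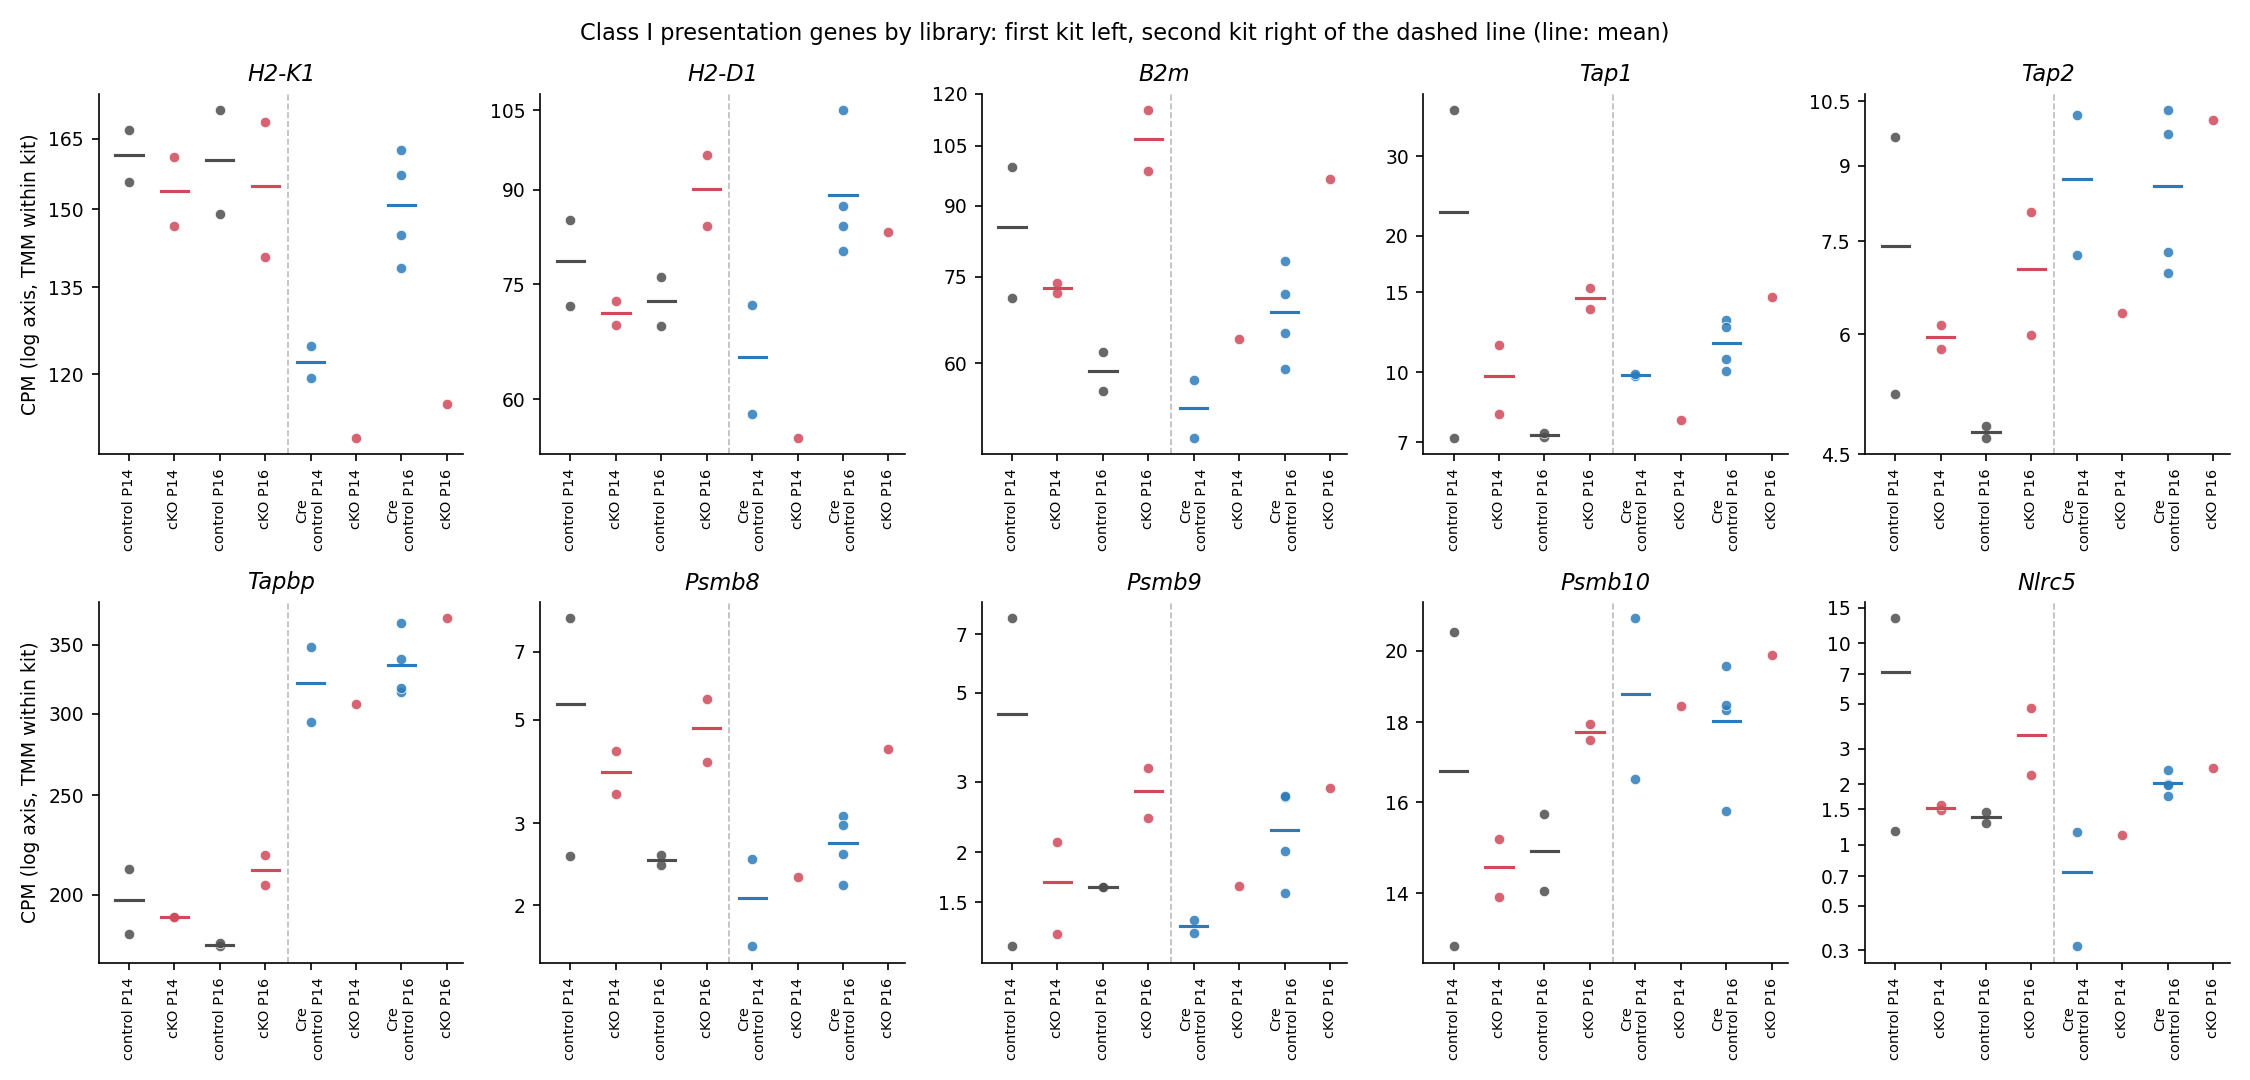
Reads as CPM, scaled to library size (TMM scaling within each kit, log axis), of each class I gene in each library: dots are libraries, coloured by genotype group, short lines are means of groups with more than 1 library, and the dashed line separates the first kit from the second. At P16 both first-kit cKO libraries lie above both controls in every panel but H2-K1, and at P14 control library 2 is the highest first-kit library in Tap1 (37.9), Psmb9 (7.67) and Nlrc5 (13.3).

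In the P16 controls the 10 genes spanned a wide range of levels. Per 1000 bases of transcript, normalised reads were highest for H2-K1 (2570), then B2m (1776), Tapbp (1602), H2-D1 (897) and Psmb10 (295). The other 5 were far lower, with Tap1 at 64.0, Psmb8 at 39.9, Tap2 at 35.8, Psmb9 at 31.5 and Nlrc5 at 4.69. In cKO the order at the top changed: B2m had the highest level per 1000 bases (3199), above H2-K1 (2463), then Tapbp (1880) and H2-D1 (1105). Tap1 at 127 and Psmb8 at 75.9 were followed by Psmb9 at 54.2 and Tap2 at 52.6, which are neighbours closer to each other than their libraries are.

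The constitutive counterparts moved the other way at P16. Psmb5, the constitutive subunit that Psmb8 replaces, was at 754 and 731 normalised reads in controls and at 653 and 647 in cKO, a fall of 0.19 on the log2 scale (SE 0.07, adjusted p = 0.0373, limma). Psmb6, replaced by Psmb9, and Psmb7, replaced by Psmb10, also fell, with changes of -0.18 (adjusted p = 0.0202) and -0.11 (adjusted p = 0.0476) in limma. So all 3 constitutive catalytic subunits fell in limma, while edgeR called 2 of them and DESeq2 1. Psmb11, which was listed beside them but is not one of these counterparts, did not pass the filter. Of the other 12 subunits of the core particle, 5 fell and none rose in limma, led by Psmb4 (-0.23), Psma8 (-0.21) and Psmb2 (-0.17), and the median of the 12 was -0.05. Here edgeR called 5 lower and DESeq2 2. Among all genes tested, 19.9% fell in limma. Psma8 is a subunit specific to the testis.

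Set against each other per length, the inducible subunits stood higher relative to the constitutive ones in cKO. Psmb8 stood at 4.87% and 4.79% of the Psmb5 level in the P16 controls and at 12.1% and 8.84% in cKO. In the second kit, cKO library 3 at P16 had 6.59%, above the 2.81% to 3.71% of the 4 Cre control libraries. Psmb9 stood at 0.740% and 0.695% of Psmb6 in controls and at 1.68% and 1.13% in cKO. For Psmb10 against Psmb7 the shares were 7.24% and 8.09% in controls and 9.84% and 9.76% in cKO. In all 3 pairs, cKO library 3 was above all 4 Cre controls at P16, with 1.14% against 0.521% to 0.915% for Psmb9 over Psmb6 and 9.71% against 6.63% to 8.49% for Psmb10 over Psmb7. By single gene, 24.02% of all genes tested lay above all 4 Cre controls in that library and 29.98% below. The shares restate levels of the single genes and are not separate evidence. At P14 the first-kit groups overlapped in all 3 pairs, control library 2 being the highest with 16.2%, 3.73% and 11.03%. These shares rest on few reads for the inducible subunits, 41 to 148 for Psmb8 and Psmb9 in the first-kit P16 libraries, and no test was run on them. At P16, Cre control libraries 2, 3 and 4 also carried another sequencing run label than cKO library 3.

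**Figure D2:**
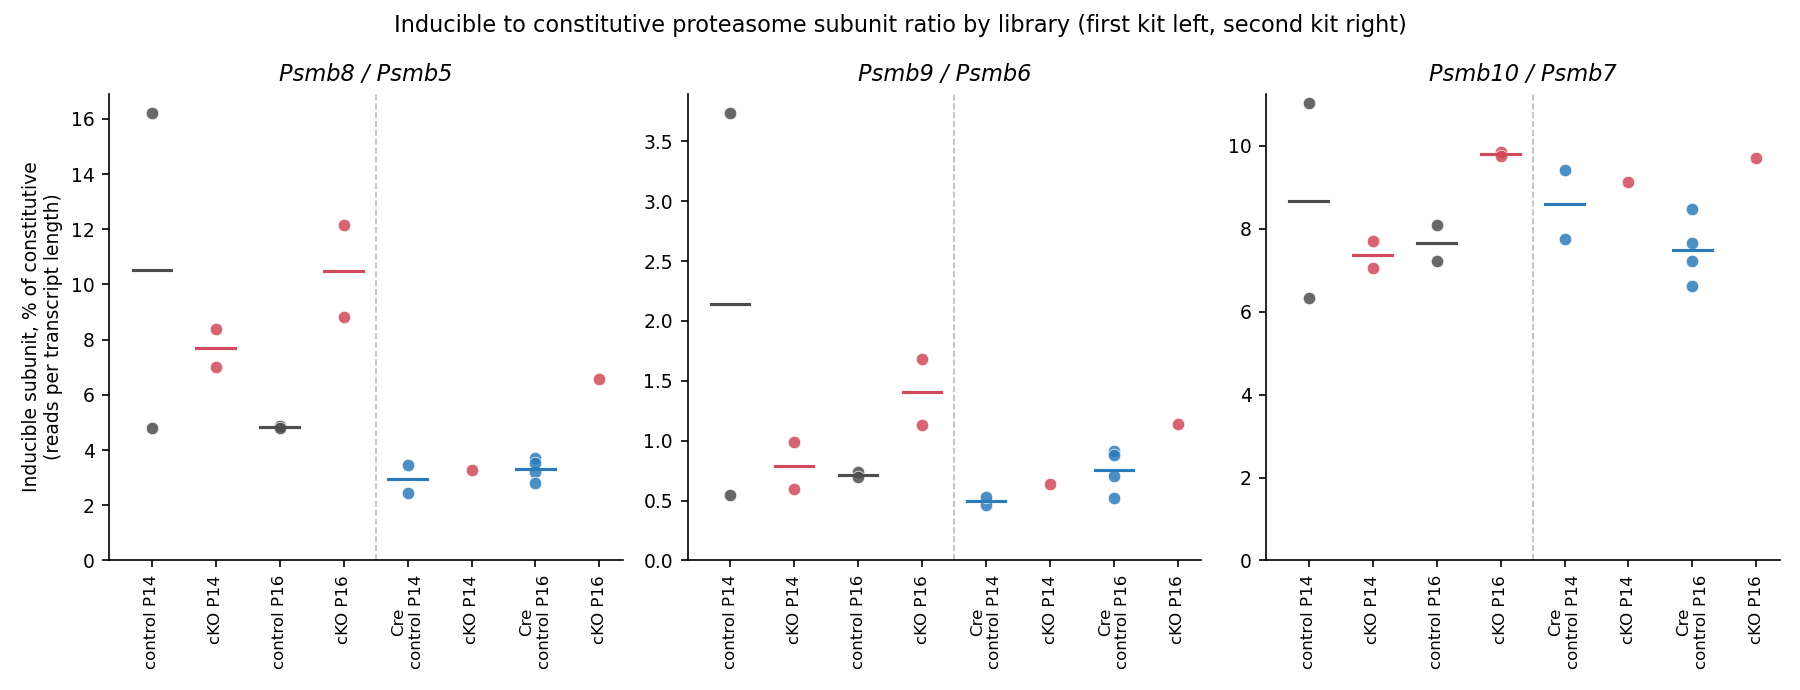
Level of each inducible proteasome subunit as a percent of its constitutive counterpart, from reads per transcript length, by library (dots) with means of groups with more than 1 library (lines). Both first-kit cKO libraries at P16 exceed both controls in all 3 panels, and P14 control library 2 is the highest dot in each.

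Against the Cre controls at P16, 1 of the 10 genes rose. All 3 cKO libraries entered this comparison against 4 Cre controls, and 4.30% of the 19200 genes tested rose and 4.77% fell. B2m was at 1410, 1535, 1289 and 1167 normalised reads in the Cre controls and at 2447, 2073 and 1853 in cKO. All 3 cKO libraries lay above all 4 controls, with a rise of 0.65 (SE 0.13, adjusted p = 0.0389, limma). Tap1 (198 to 256 in Cre controls, 282 to 327 in cKO) and Psmb8 (43.8 to 61.1, and 83.4 to 118) did not overlap between groups either, and over all genes tested 13.2% had all cKO libraries above all Cre controls. Their changes were 0.39 (adjusted p = 0.0789) and 0.81 (adjusted p = 0.0514) in limma, and neither was called. The remaining 7 genes overlapped, with changes from -0.34 in Tapbp to 0.59 in Nlrc5. The median of the 10 was 0.24, against -0.04 over all genes.

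Cre controls all came from the second kit and 2 of the 3 cKO libraries from the first. With kit as a term in this fit no class I gene was called, B2m being at 0.46 with an adjusted p of 0.17, and 2 of the 10 had an unadjusted p under 0.05. Leaving out any library other than cKO library 3 also ended the call of B2m, at an adjusted p between 0.0761 and 0.191, while without cKO library 3 the fit called 4 of the 10, B2m, Tap1 and Psmb8 higher and Tapbp lower. That last fit called 9427 of all 19046 genes, and since it sets first-kit cKO against second-kit Cre controls, kit and genotype cannot be told apart in it. Within the second kit alone, cKO library 3 exceeded all 4 Cre controls in B2m (1853 against 1167 to 1535), Tap1 (282 against 198 to 256), Psmb8 (83.4 against 43.8 to 61.1) and Psmb9 (55.6 against 31.0 to 54.9). It was below all 4 in H2-K1, at 2217 against 2739 to 3197, and within their range in the other 5. For comparison, 24.02% of all genes tested lay above and 30.0% below all 4 Cre controls in this single library. This gives 4 of 10 above and 1 of 10 below with no replicate. By the run labels in the column names, cKO library 3 shared a run with Cre control library 1 only. Cre control libraries 2, 3 and 4 carried another run label, so run and genotype partly coincide within the second kit at P16.

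The joint fit over all 9 P16 libraries, with both control types and kit as a term, called 3 class I genes. It ran on log2 CPM (reads scaled to library size) of the whole reads, and 6.07% of the 19932 genes tested rose and 7.49% fell. B2m rose by 0.68 (SE 0.11, adjusted p = 0.0047), Tap1 by 0.69 (SE 0.15, adjusted p = 0.0154) and Psmb8 by 0.79 (SE 0.18, adjusted p = 0.0175) in limma. Nlrc5 (0.78, adjusted p = 0.0868), Psmb9 (0.58), Tap2 (0.40), Psmb10 (0.19), Tapbp (0.19) and H2-D1 (0.12) had positive changes that did not pass, and H2-K1 was at -0.22 (adjusted p = 0.16). The median of the 10 was 0.49, against -0.01 over all genes. This fit shares its cKO libraries with the comparisons above and is not separate evidence. It had no term for the sequencing run. Tap1 and Psmb8 were not called without control library 1, control library 2 or cKO library 1, at adjusted p values between 0.0549 and 0.0763, and Psmb8 was also lost without cKO library 3, at 0.0527.

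The size of the cKO effect was also compared between kits at P16, in a test added after the data were seen. All 10 differences (second kit minus first) were negative, from -0.10 in Tapbp to -0.98 in Nlrc5, with a median of -0.36. For H2-K1 and H2-D1 the second-kit change of cKO library 3 against the Cre controls was itself negative, at -0.42 and -0.13, and for the other 8 genes it was positive. None was called by limma, edgeR or DESeq2. At an unadjusted p under 0.05 limma counted 1 of the 10, which was Tap1 at -0.66 (SE 0.24), and edgeR and DESeq2 counted 2 each. Across all genes 0.0452% were higher and 0 lower in this test. The second kit has 1 cKO library, and its control type also differs, so kit and control type cannot be told apart. Run labels also differ between cKO library 3 and Cre control libraries 2, 3 and 4.

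**Figure D3:**
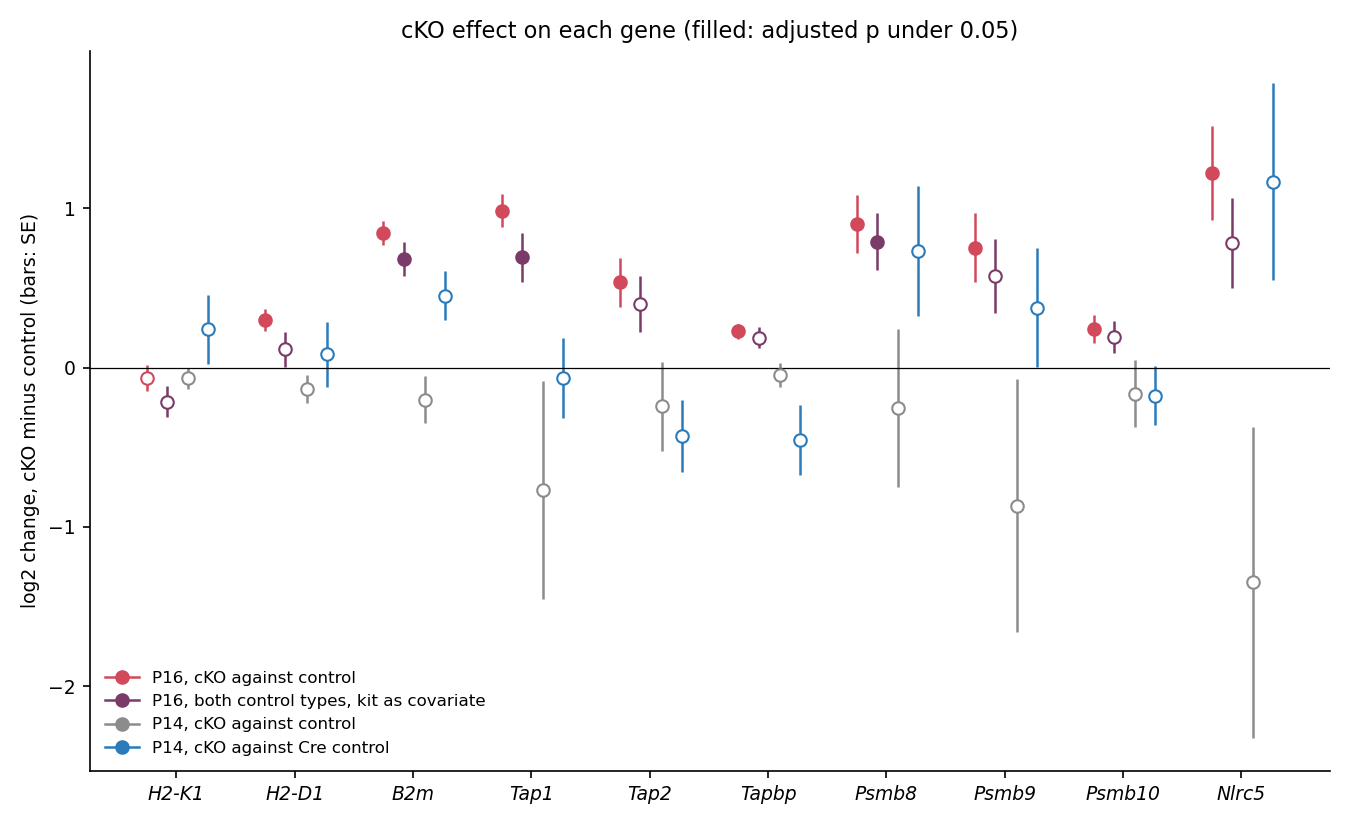
Fitted log2 change of each class I gene (dots, with standard errors as bars) in 4 comparisons, filled where the adjusted p was under 0.05. At P16 against controls 9 dots are filled and all but H2-K1 lie above 0; at P14 no dot is filled.

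At P14, shortly after tamoxifen, no class I gene was called in cKO against control. Neither limma, edgeR nor DESeq2 called any of the 10, and 0 had an unadjusted p under 0.05 in each. In this comparison 0 of the 17270 genes tested rose and 0.00579% fell, so hardly any gene passed. Tap1 was at 172 and 917 normalised reads in the 2 controls and at 195 and 278 in cKO. Nlrc5 was at 28.0 and 321 in controls and at 35.9 and 38.0 in cKO, and Psmb9 at 28.0 and 185 in controls and at 30.1 and 51.2 in cKO. In all 3 genes both cKO libraries lay between the 2 controls, which were far apart. B2m was at 1705 and 2400 in controls and at 1782 and 1735 in cKO.

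The 10 fitted changes at P14 were all negative, with a median of -0.22, and 8 of them turned positive without control library 2. Without it, Psmb8 was at 0.59, Psmb9 at 0.48, Tap1 at 0.43 and Nlrc5 at 0.39, again with no call. All 10 class I genes were higher in control library 2 than in control library 1, and 4 of them by more than 2-fold: Nlrc5 (11.1-fold), Psmb9 (6.43-fold), Tap1 (5.30-fold) and Psmb8 (3.21-fold). Among all genes tested, 1.38% were more than 2-fold higher in that library. H2-K1 (1.08-fold), Tapbp (1.16-fold) and H2-D1 (1.19-fold) differed least. Between the 2 P14 cKO libraries the same ratio ran from 0.919 in Psmb10 to 1.68 in Psmb9, and between the 2 P16 controls from 0.867 in H2-K1 to 1.13 in Nlrc5. These ratios are of normalised reads plus 1.

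Other immune genes were high in the same P14 control library. All 6 class II presentation genes tested were higher there, 4 of them by more than 2-fold, with a median ratio of 3.42 and H2-Aa at 5.95. Of 22 interferon-stimulated genes tested, 21 were higher, with a median ratio of 1.79 and the guanylate-binding protein gene Gbp2 at 7.57. Macrophage markers as a list were not: 6 of 12 were higher, their median ratio was 1.00, and their summed level was 5394 to 5544 in the 2 controls. Of lymphocyte and leukocyte markers 3 of the 5 tested were higher, with a median ratio of 1.02. Their part in the class I values of that library was not tested.

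Against the Cre controls at P14, no class I gene was called either. Limma, edgeR and DESeq2 called 0 of the 10, and B2m alone had an unadjusted p under 0.05 in limma (1 gene each in edgeR and DESeq2). Of the 18196 genes tested, 0 rose and 0 fell. B2m was at 909 and 1042 normalised reads in the 2 Cre controls and at 1443, 1412 and 1160 in cKO, with a change of 0.45 (SE 0.15, adjusted p = 0.479, limma). Its 3 cKO libraries lay above both Cre controls, as was so for 11.7% of all genes. Tap2 was at 187 and 132 in the Cre controls and at 113, 121 and 115 in cKO, below both controls, as were 14.8% of all genes, and the other 8 genes overlapped. Without cKO library 3, 4 genes were called, B2m (0.55), H2-K1 (0.44) and Psmb8 (1.01) higher and Tapbp (-0.65) lower, but all remaining cKO libraries then came from the first kit and all Cre controls from the second, so that kit and genotype cannot be told apart. That fit called 6256 of all 17924 genes. Within the second kit, cKO library 3 was above both Cre controls in B2m and Psmb9, below both in H2-K1, H2-D1, Tap1 and Tap2, and between them in the other 4, while 26.9% of all genes were above and 33.3% below. In the joint P14 fit with kit as a term, limma, edgeR and DESeq2 called 0 of the 10 and 0 had an unadjusted p under 0.05, while over all 18892 genes 0 rose and 0.00529% fell. The median of the 10 in that fit was -0.15, and 0.06 without P14 control library 2, again with 0 called.

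The difference between the P16 and the P14 effect of the knockout was tested in the first kit. B2m was the only 1 of the 10 called, with a difference of 1.06 (SE 0.19, adjusted p = 0.0140, limma), and over all genes 2.90% had a higher and 4.49% a lower effect at P16. All 10 differences were positive, with a median of 0.93, the widest errors being in Nlrc5 (2.58, SE 1.19) and Psmb9 (1.64, SE 0.94). Without P14 control library 2 the median was 0.33, Nlrc5 was at 0.85, Psmb9 at 0.30 and B2m at 0.82 (adjusted p = 0.021, limma). Without P14 control library 1, which leaves library 2 as the lone P14 control, Nlrc5 was at 4.315, Psmb9 at 2.974 and B2m at 1.305. The call of B2m was lost without P16 control library 1 or 2, or P16 cKO library 1. Of the signs, only that of H2-K1 changed without P14 control library 2, to -0.03.

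The change from P14 to P16 was fitted within each group, with limma on log2 CPM within a kit. In cKO, H2-D1 rose by 0.34 (SE 0.09, adjusted p = 0.0181) and B2m by 0.55 (SE 0.13, adjusted p = 0.0128), while 16% of all genes rose and 13.8% fell. B2m was at 73.8 and 71.8 CPM at P14 and at 115 and 98.4 at P16. H2-D1 was at 69.3 and 72.5 at P14 and at 96.4 and 83.9 at P16, so neither gene's stages overlapped. Without P16 cKO library 1 neither was called, with adjusted p values of 0.12 for B2m and 0.18 for H2-D1, and without P14 cKO library 1 H2-D1 was not, at 0.0716.

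In controls, B2m fell from P14 to P16 by 0.52 on the log2 scale (SE 0.13, adjusted p = 0.0240, limma), where 13.3% of all genes rose and 6.67% fell. It was at 71.0 and 99.3 CPM at P14 and at 61.8 and 55.8 at P16. All 10 fitted changes were negative, with a median of -0.54, but without P14 control library 2 no gene was called and 6 of the 10 turned positive, B2m being at -0.27 with an adjusted p of 0.11. Without P16 control library 1 or 2 B2m was not called either, at adjusted p values of 0.076 and 0.16. Without P14 control library 1, which leaves library 2 as the lone P14 control, B2m was at -0.757.

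In Cre controls, Nlrc5 rose by 1.63 (SE 0.43, adjusted p = 0.0355, limma), from 0.314 and 1.16 CPM at P14 to between 1.75 and 2.36 in the 4 libraries at P16. Over all genes 8.97% rose and 2.82% fell. These values rest on 5 and 17 reads of Nlrc5 at P14. Without P14 library 1 the change was 0.77 with an adjusted p of 0.27, and leaving out any P16 library also ended the call, at adjusted p values between 0.0522 and 0.091. Both P14 Cre controls and P16 library 1 carried one run label in their column names and P16 libraries 2, 3 and 4 another, so run and stage partly coincide. H2-D1 (0.45, adjusted p = 0.0504) and H2-K1 (0.30, adjusted p = 0.0645) had positive changes that were not called.

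Against controls at P16, 7 of the 11 other class I heavy chains tested (17 listed) rose in cKO and 1 fell in limma, with a median of 0.53. Among all genes tested, 18.6% rose and 19.9% fell. DESeq2 called 4 higher and 0 lower, and edgeR 7 and 1. H2-T24 went from 28.1 and 18.9 normalised reads in controls to 69.9 and 78.7 in cKO, a change of 1.64 (adjusted p = 0.000251). H2-T23, the Qa-1 heavy chain, went from 261 and 212 to 508 and 452, a change of 1.02 (adjusted p = 2.13e-05), and H2-Q4 from 115 and 96.4 to 213 and 180, a change of 0.89 (adjusted p = 0.000453). The 1 that fell was H2-Q2, named after its value was seen, from 43.6 and 64.3 to 30.1 and 32.1 (adjusted p = 0.0305). With the Cre controls none rose and 1 fell in limma, H2-Q7 (-1.21, adjusted p = 0.0439), also named after its value was seen. Kit and genotype partly coincide in that fit. H2-Q7 was at 1.16 and 1.377 CPM in the first-kit cKO libraries at P16. In the second kit it was at 2.614 in cKO library 3 and 3.157 to 4.378 in the Cre controls. Against the first-kit controls its groups overlapped, with means of 26.46 normalised reads in controls and 32.65 in cKO. The part of kit in the H2-Q7 fall was not tested. The list's summed level overlapped, at 2070 to 2420 in Cre controls and 2142 to 2368 in cKO. Of the H2-D1 words of 75 bases, 2.74% occur in H2-T23, and of the H2-K1 words 0.187% occur in H2-T23 and 0.107% in H2-Q4. Reads of such stretches cannot be assigned to 1 gene and may have gone uncounted.

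Genes that supply and load peptides changed in both directions. Of 12 listed and tested, 2 rose and 3 fell in limma, with a median of 0.05. These counts are near the shares over all genes tested, of which 18.6% rose and 19.9% fell. The aminopeptidases that trim peptides, Erap1 (0.31, adjusted p = 0.000601) and Lnpep (0.25, adjusted p = 0.000518), rose, and the endoplasmic reticulum chaperone Hspa5 fell, with a change of -0.35 (adjusted p = 0.000334). Among 11 factors that act at class I promoters, 3 rose and 1 fell, with a median of 0.02. Rfx5, which binds the same promoter element complex that Nlrc5 joins, went from 868 and 835 to 1323 and 1423 normalised reads, a rise of 0.69 (adjusted p = 4.51e-06). Irf2 rose by 0.56 (adjusted p = 0.0014), and Nfyc fell, with a change of -0.36 (adjusted p = 0.000543).

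Interferon-stimulated genes rose at P16 against controls, where 18.6% of all genes tested rose in limma. All 23 tested rose in limma and edgeR, and 20 in DESeq2, with a median of 1.18 and a range of 0.42 to 2.54, whereas the class I genes lay between -0.07 and 1.219. Ifit1 went from 43.6 and 28.4 normalised reads to 204 and 214 (2.54, adjusted p = 1.82e-06), Ifit3 from 55.1 and 50.1 to 263 and 323 (2.45, adjusted p = 2.06e-07), and Oas2 rose by 2.17 (adjusted p = 0.000447). Of 12 interferon signalling genes, 7 rose and 2 fell, with a median of 0.21. The transcription factor gene Irf7 rose by 2.13 (adjusted p = 3.52e-06), Stat2 by 0.79 (adjusted p = 1.03e-05) and Irf9 by 0.74 (adjusted p = 2.07e-05). In the joint P16 fit 17 of the 23 interferon-stimulated genes rose, with a median of 0.92, and against the Cre controls 3 did, with a median of 0.61. Over all genes tested, 6.07% rose in the joint fit and 4.30% against the Cre controls.

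Markers of other cells moved with the class I genes at P16 as well. The macrophage markers had a summed level of 3695 to 3827 normalised reads in controls and 5248 to 5358 in cKO, none of the 12 being at 0, and 8 of 12 rose with a median of 0.59. Among all genes tested, 18.6% rose. Lyz2 rose by 0.88 (adjusted p = 2.04e-05), Cd68 by 0.77 (adjusted p = 0.0050) and Adgre1 by 0.76 (adjusted p = 0.000208) in limma. In the table with Cre controls that sum was 2904 to 3705 in Cre controls and 3981 to 4388 in cKO, also without overlap. There Mrc1 was the only macrophage marker called, at 0.54 (adjusted p = 0.0367, limma). Kit and genotype partly coincide in that table. No class II presentation gene was called: none of the 7 tested was called by limma, edgeR or DESeq2, the number with an unadjusted p under 0.05 was 1 in limma, 1 in edgeR and 0 in DESeq2, their median was 0.18, and Cd74 was at 0.44 (adjusted p = 0.0863).

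Lymphocyte and leukocyte markers were low, at a sum of 250 to 263 normalised reads in controls and 294 to 330 in cKO. Of 15 listed, 11 did not reach the filter; Ptprc rose by 0.70 (adjusted p = 0.0054) and Cd3e fell, with a change of -0.74 (adjusted p = 0.0295) in limma, the second of which DESeq2 did not call. Of somatic lists, 8 of 12 Sertoli markers, 5 of 9 tested Leydig markers, 3 of 10 endothelial and 3 of 8 peritubular markers rose and none fell in limma, with medians of 0.22, 0.29, 0.17 and 0.19. Among all genes tested, 18.6% rose and 19.9% fell. Spermatogonial markers went the other way, with 10 of 12 lower, 1 higher and a median of -0.48, led by Stra8 at -1.10. Of the 16 spermatocyte markers 4 rose and 8 fell. The part of these shifts in the class I changes was not tested.

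**Figure D4:**
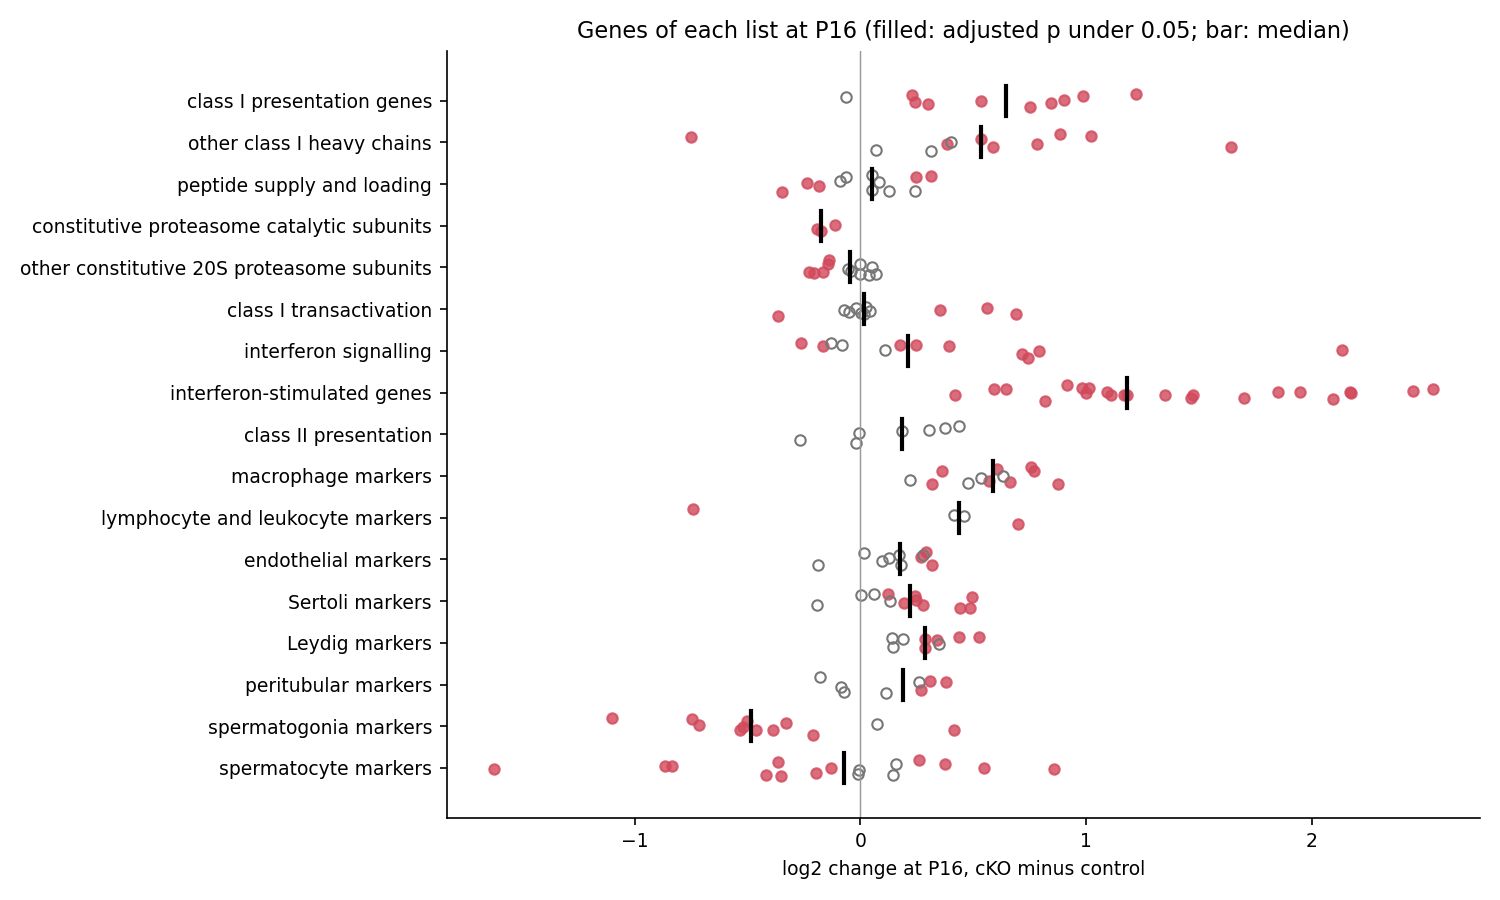
Log2 change at P16, cKO minus control in the first kit, of every tested gene (dots, spread vertically for visibility only) of each list, filled where the adjusted p was under 0.05, with the list's median as a bar. The class I genes have a median of 0.64, between the interferon-stimulated genes at 1.18 and the macrophage markers at 0.59.

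Finally, genes were ranked by how closely their level followed the class I genes across the 16 libraries. Levels were log2 CPM centred within each kit and stage, and likeness was Pearson's r with the mean of the 10 standardised genes, given as a description. The 5 genes outside the 10 with the highest r were H2-Q4 (0.93), Gbp4 (0.91), Gbp2 (0.91), Gbp7 (0.90) and Igtp (0.90), that is, a class I heavy chain, 3 guanylate-binding proteins and an immunity-related GTPase. Without P14 control library 2, over 15 libraries, their r was 0.87, 0.83, 0.85, 0.80 and 0.78. Among the 10 genes themselves, which are part of that mean, r was highest for Tap1 (0.95) and Psmb9 (0.92) and lowest for H2-K1 (0.23). The libraries with the highest mean score were P14 control library 2 (1.72) and P16 cKO library 1 (1.15), and the lowest was P14 control library 1 (-0.89).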

How the data were processed

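RNA of 16 mouse testis libraries was analysed from 4 deposited tables, 1 for each stage and control type. The deposited values are a signal, gene counts that the authors divided by a size factor within each table. Per the submitters' processing notes, Trim Galore, STAR, HTSeq and DESeq2 were used with GRCm39 (mm39). Versions, annotation and strand setting are not given in the sources used here. Whole reads were recovered for 100% of values above 0 in all 20 columns (within 0.01 reads). The 4 rows that name no gene were left out, and their shares of all reads were 18.1% to 41.1% unmapped, 5.81% to 10.9% multimapping, 12.3% to 28.6% without a feature and 1.37% to 2.80% ambiguous. Names came from GENCODE M21 (52081 of 55414 IDs).

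Genes that reached 10 in at least 2 libraries were tested with limma 3.58.1 in R 4.3.3 (variance trend) on log2(value + 1), with adjustment over all genes tested. Fits across tables used log2 CPM from the recovered reads (TMM, prior count 1). The method was tested on simulated data. edgeR 4.0.16 and DESeq2 1.42.0 on the recovered reads, other pseudocounts (0.1 and 10), filters (none, or 50), scalings, a replicate block and leaving out each library were alternatives. The genes and lists were chosen with earlier results of these data known. Named genes were the 10 genes everywhere, up to 3 called genes of largest change from each other list (where none was called, 1 as a value), the 5 most alike, the counterparts Psmb5, Psmb6 and Psmb7, the other heavy chains, and Ythdc2.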

Additional observations from a re-analysis of the deposited data

Results flagged for a closer look

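B2m was singled out because its response to the knockout differed between the stages by a test of the difference itself: the log2 change at P16 was larger than that at P14 by 1.062 (SE 0.19, adjusted p = 0.0140, limma, first kit). B2m was at 1705 and 2400 normalised reads in the P14 controls against 1782 and 1735 in cKO, and at 1606 and 1448 in the P16 controls against 2987 and 2515 in cKO. The fitted P14 change was -0.20, and 0.044 without P14 control library 2. Leaving out 1 library at a time gave differences from 0.82 (without P14 control library 2) to 1.305 (without P14 control library 1), and the call was lost without either P16 control library or without P16 cKO library 1. No outlying library was found for the 10 genes by Dixon's test in the 4 Cre control libraries at P16, the only group large enough to be tested.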

How the results depend on the processing

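Counts of called class I genes depended on the variance model and on single libraries. Without limma's variance trend the count went from 9 to 2 at P16 against controls, and to 0 against the Cre controls (from 1), in the difference between stages (from 1) and in the stage fits of control (from 1), cKO (from 2) and Cre control (from 1). Without a filter on low values it was 0 in the difference between stages and in all 3 stage fits. Against the Cre controls at P16 it was 2 with DESeq2, a pseudocount of 10, TMM scaling or quantile normalization, and 0 with kit as a term. DESeq2 called 2 in the difference between stages and 2 in the control stage fit. In the Cre control stage fit edgeR called 0, a minimum of 50 reads gave 0 and a prior count of 10 gave 2. Leaving out 1 library at a time gave 6 to 8 at P16 against controls, 0 to 4 against the Cre controls, 1 to 4 in the joint P16 fit, 0 to 4 against the Cre controls at P14, 0 to 9 in the difference between stages, and 0 to 8, 0 to 2 and 0 to 3 in the stage fits of control, cKO and Cre control.

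Same-numbered control and cKO libraries had correlations of 0.20 at P14 and 0.08 at P16 between their deviations from the group means. With 2 libraries per group these deviations mirror each other, so the values cannot decide whether the replicate numbers pair the libraries. With the replicate block the count was 9 at P16 against controls, 0 against the Cre controls, 1 in the joint P16 fit, 5 against the Cre controls at P14 (with 6966 of all 18196 genes called, since cKO library 3 is alone in its block and kit and genotype cannot then be told apart), 2 in the difference between stages and 2 in the Cre control stage fit.

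Signs changed in genes near 0 and in genes with larger fitted changes. Against the Cre controls at P16, H2-K1 was at 0.002 with edgeR. Tap2 was at 0.125 with quantile normalization, 0.046 with the replicate block and 0.212 with kit as a term. H2-D1 was at -0.011 with the block and -0.13 with kit as a term, where Tapbp was at 0.115. Against the Cre controls at P14, Tap1 was at 0.028 with quantile normalization and 0.073 with the block, and with kit as a term H2-K1 was at -0.153 and H2-D1 at -0.224. H2-K1 was at -0.021 without a filter in the difference between stages, and in the cKO stage fit at -0.006 with DESeq2, 0 with a minimum of 50 reads and -0.026 without a filter. Tap2 was at 0.013 without a filter in the Cre control stage fit. Quantile normalization moved the median of all genes to 0.10 against the Cre controls at both stages.

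With 1 library left out, H2-K1 ranged from -0.206 to 0.077 at P16 against controls and from -0.213 to 0.134 against the Cre controls, where H2-D1 ranged from -0.057 to 0.122 and Tap2 from -0.18 to 0.124. At P14 against controls the ranges were -0.449 to 0.044 for B2m, -1.972 to 0.434 for Tap1, -0.69 to 0.204 for Tap2, -0.157 to 0.06 for Tapbp, -1.094 to 0.59 for Psmb8, -2.209 to 0.475 for Psmb9, -0.499 to 0.173 for Psmb10 and -3.084 to 0.388 for Nlrc5. Against the Cre controls at P14 they were -0.26 to 0.073 for Tap1, -0.079 to 0.243 for H2-D1 and -0.356 to 0.001 for Psmb10. In the joint P14 fit they were -0.207 to 0.143 for B2m, -1.161 to 0.043 for Tap1, -0.467 to 0.376 for Psmb8, -0.952 to 0.389 for Psmb9, -0.269 to 0.07 for Psmb10 and -1.351 to 0.594 for Nlrc5. H2-K1 ranged from -0.139 to 0.144 in the difference between stages. In the control stage fit the ranges were -0.114 to 0.093 for H2-K1, -0.227 to 0.012 for H2-D1, -2.376 to 0.022 for Tap1, -2.199 to 0.48 for Psmb9, -0.465 to 0.199 for Psmb10 and -3.244 to 0.223 for Nlrc5. In the cKO stage fit they were -0.146 to 0.137 for H2-K1 and -0.011 to 0.431 for Tap2, and in the Cre control stage fit -0.268 to 0.212 for Tap2, -0.222 to 0.114 for Psmb10 and -0.061 to 0.18 for Tapbp.

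Counts over all genes moved too: from 6939 to 1806 without the trend and 4591 without P16 control library 1 in the P16 control comparison, and between 0 and 9427 with 1 library left out against the Cre controls at P16. Beyond fewer libraries or other genes tested, the cause was not tested.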
